A study of Mus with 16 samples.

Results

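Named pseudogenes were followed next to the genes they were copied from in RNA of B16 melanoma. A named pseudogene is taken here as a row that the deposited annotation types as pseudogene or processed_pseudogene and whose symbol ends in -ps with or without a number. Of 38087 genes in the table, 762 met this, and 249 of them had a mean of at least 0.5 CPM, the count scaled to a common library total, over the 16 libraries. The members were thus chosen by the annotation and by their mean CPM, and these 249 are described here. All 249 passed the filter on low counts and were tested, among 19340 genes in all. The parent gene is the one whose symbol stands before -ps. It was found by its current symbol for 218 pseudogenes and by an older symbol in RefSeq (assembly GRCm38.p6) for a further 10, which gave 112 parent genes, all protein-coding. For 21 pseudogenes no parent was found by either route. Their levels are given as a description, since the mean CPM was used to choose them.

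RNA came from B16 tumours, a transplantable mouse melanoma, set under the skin of C57BL/6 mice and left to grow for 7 days, a period that the labels do not place relative to the doses. Libraries fall into 4 groups of 4 tumours: WT or B cell-depleted mice, each untreated or given anti-PD-L1, an antibody that blocks PD-L1, the ligand of PD-1, a receptor that restrains T cells. Treated mice received 3 doses, each 3 days from the next, and their tumours were collected 3 days after dose 3. The columns of the count table call the depleted groups BKO, and neither the way B cells were removed nor whether an injection of 3M-052 or its control was given is stated for these tumours. The tumour line is transplanted, so all groups carry the same melanoma. The letters A to D of the columns name the libraries of a group.

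Pseudogenes are copies of genes that have lost the capacity to make the normal protein. Processed pseudogenes arise when messenger RNA is copied back into DNA and inserted elsewhere in the genome, so they lack introns and usually lack the promoter of the parent. Genes with abundant messenger RNA, above all those of ribosomal proteins, have left many such copies in rodents. A copy that landed in an intron or next to an active promoter can be transcribed from there. Because a young copy is nearly identical to its parent, short reads of one can be placed on the other, and the sources used here do not say how reads with several places were treated. Every value of a pseudogene below is therefore uncertain in this respect, and so is that of its parent.

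The members were mainly copies of ribosomal protein genes. By the parent symbol, 147 of 249 were copies of ribosomal protein genes, 9 of histone and chromatin genes, 5 of chaperone genes, 4 of glycolysis genes, 4 of translation factor genes, 2 of proteasome genes and 1 of an RNA binding protein gene, and 77 were copies of other genes. The annotation typed 215 as pseudogene and 34 as processed_pseudogene. Their spans had a median of 519 bases and a median GC content of 49.4%, and 203 were under 1000 bases long. X held 41 and chromosome 4 held 25. Of 228 members with a parent, 11 lay on the chromosome of that parent and 4 of these within 1 Mb of it. Among the 4 was Rpl27-ps2, 494 kb from Rpl27 on chromosome 11.

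Many members share their reads with another gene. Reads in a stretch that 2 genes share count for both, whatever their strand. Wholly inside another listed gene were 63 members, 21 on the strand of that gene and 42 on the opposite strand, while 177 overlapped no listed gene and 9 overlapped one in part. In none of the 63 did the surrounding gene have fewer counts than the pseudogene in any library. The 63 held a median of 70.7% of the counts of the surrounding gene on a median of 0.611% of its span, and for 34 this share was over 50%. An example is Gpr133, an adhesion receptor gene on the opposite strand, where 99.9% of the counts were those of Rps16-ps2.

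Libraries held from 12544573 to 35647409 counts. The 249 members took 1.61 to 2.32% of the counts of a library and the parents 1.65 to 2.43%. Igkc, the kappa light chain of antibodies, had counts in 8 of 8 WT and 0 of 8 depleted libraries, with 65 counts in all. Ighm, the heavy chain of IgM, had 151 counts in WT libraries and 64 in depleted ones, over 6 of these 8. The 8 B cell markers listed summed to 2.34 to 6.41 CPM in WT and 3.16 to 6.15 CPM in depleted untreated libraries, and to 2.60 to 3.37 CPM in WT and 2.16 to 4.76 CPM in depleted treated libraries, so this sum did not separate depleted from WT libraries. The 7 melanoma markers listed summed to between 16847 and 23566 CPM in every library. Depleted untreated library B and WT treated library D stood apart as those with the lowest GC slopes of all 16. Their mean correlations with the other libraries of their own group were 0.943 and 0.978, the former the lowest of the 16, while depleted untreated A, C and D (0.964, 0.973 and 0.965) and depleted treated A (0.971) were also below WT treated D in this measure. The GC slope is the slope, on the GC content of genes, of log2 CPM relative to the mean of each gene over the 16 libraries, per 10 percentage points, and it was −0.72 and −0.46 in these libraries. Without treatment it ran from 0.14 to 0.25 in WT and from −0.72 to 0.32 in depleted libraries, and with treatment from −0.46 to −0.09 in WT and from −0.04 to 0.22 in depleted ones. The WT treated libraries thus did not overlap the WT untreated or the depleted treated ones in this measure. The erythroid markers found, 2 of 3 listed and neither at 0, summed to 58.6 to 740.4 CPM without treatment in WT and 17.3 to 54.8 CPM in depleted libraries, and with treatment to 33.2 to 100.3 CPM in WT and 83.7 to 382.1 CPM in depleted ones. The part of GC slope and of erythroid cells in the results was not tested, beyond a fit with the GC slope as a covariate. In these bulk samples fewer cells with a transcript and less of it per cell cannot be told apart.

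Group differences of the members were few in the single comparisons and more frequent in the interaction. In treated tumours 4 of 249 members differed between depleted and WT mice by the edgeR quasi-likelihood test at an adjusted p under 0.05 (1.61%), 2 higher and 2 lower, against 0.698% of all tested genes (0.445% higher, 0.253% lower). In untreated tumours 5 of 249 differed (2.01%), 1 higher and 4 lower, against 0.889% of all tested genes (0.212% higher, 0.677% lower). For treatment in WT mice 0 members passed (0.00517% of all tested genes did), with 67 (26.9%, against 26.4% of all tested genes) below 0.05 before adjustment. DESeq2 gave 24 members there (9.64%, against 8.9% of all tested genes) and limma voom 1 (0.402%, against 0.103%). For treatment in depleted mice 1 member passed on the lower side (0.402%), against 0.0672% of all tested genes (0.0207% higher, 0.0465% lower). Before adjustment 61 members (24.5%) were below 0.05 there, against 10.4% of all tested genes. The interaction takes the depleted to WT difference under anti-PD-L1 and subtracts the one without it. In it 30 members passed (12%), 14 higher and 16 lower, against 7.62% of all tested genes (4.75% higher, 2.87% lower). With the GC slope as a covariate 5 passed it (2.01%, against 0.9% of all tested genes), and with 1 library left out the count ran from 6 (without depleted treated C or WT untreated C) to 75 (without depleted untreated D). The share of all tested genes is not given for the fits with 1 library left out. In all, 31 members passed in at least 1 comparison, for which the share of all tested genes is not given. Of the 31, 20 overlapped no gene and 6 lay on X, near the shares over all 249 members (177 and 41). Among parent genes 1, 0, 0, 0 and 19 of 111 tested passed in the same order (0.901%, 0%, 0%, 0% and 17.1%). Among the other 2028 tested pseudogenes 38, 73, 0, 10 and 367 passed (1.87%, 3.6%, 0%, 0.493% and 18.1%). The comparisons share groups of libraries, so these counts are not independent of each other.

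Psmb7-ps2 passed in 4 of the 5 comparisons. Its parent Psmb7 encodes a catalytic subunit of the proteasome, the complex that degrades tagged proteins. Psmb7-ps2 (mm10 chrX:8105294-8106113, plus strand) was at 6.39, 6.37, 7.51 and 6.80 CPM in the WT untreated libraries A to D. In depleted untreated libraries it was at 14.6, 14.1, 13.8 and 10.9 CPM. WT treated libraries had 10.3, 12.7, 15.0 and 14.3 CPM, and depleted treated libraries 5.05, 4.65, 5.93 and 6.91 CPM. The lowest of the 8 libraries that were either depleted or treated but not both lay above the highest of the other 8. It was 1 of the 3 members, with Rps24-ps2 and Rpl28-ps3 on the lower side, for which these 8 libraries did not overlap the other 8. Of all tested genes, 0.321% did so on the higher and 0.584% on the lower side, which is near the shares of the 249 members. Depleted tumours had more of it without treatment (log2 0.98 ± 0.17, SE, edgeR adjusted p = 0.0151) and less of it with treatment (−1.21 ± 0.17, 0.01). Treatment lowered it in depleted mice (−1.24 ± 0.17, 0.00749), and the value in WT mice, 0.95 ± 0.17, did not pass (0.052). The interaction was −2.19 ± 0.24 (adjusted p = 0.000457) and passed without any 1 of the 16 libraries.

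Psmb7 itself moved little. Without treatment it was at 168 ± 8.4 CPM in WT and 158 ± 9.4 CPM in depleted tumours, and with treatment at 154 ± 19 and 153 ± 13 CPM (SD, n = 4). Its log2 changes in the 5 comparisons lay between −0.12 and 0.08, and the lowest adjusted p was 0.4995. The log2 ratio of pseudogene to parent CPM was −4.62 ± 0.10 and −4.75 ± 0.25 in WT untreated and depleted treated libraries and −3.56 ± 0.21 and −3.56 ± 0.37 in the other groups. Psmb7-ps2 lies inside Gm6787, a processed transcript of the same strand, which had 61 counts outside it in the 16 libraries together, so the values of both are 1 measurement. Without WT treated library C the difference in treated tumours was −1.12 (adjusted p = 0.0694), and without WT untreated A, B or D that in untreated tumours had an adjusted p of 0.0562, 0.051 or 0.0642. Without depleted treated library B the treatment difference in depleted mice was −1.16 (adjusted p = 0.0604). In fits of only the groups compared, neither the difference in untreated tumours nor that of treatment in depleted mice passed (adjusted p 0.0777 and 0.353).

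**Figure D1:**
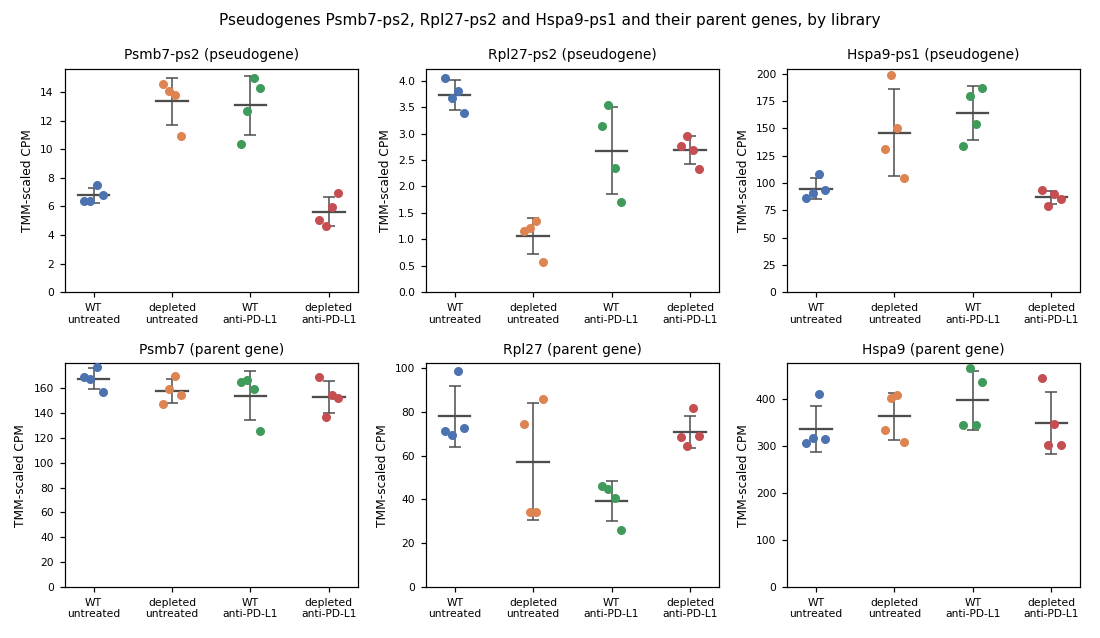
Expression in TMM-scaled CPM (y axis, linear, from 0) of Psmb7-ps2, Rpl27-ps2 and Hspa9-ps1 (upper row) and of their parent genes (lower row) in the 4 groups of 4 libraries. Points are libraries, bars are means and whiskers SD. Psmb7-ps2 was at 10.3 CPM or more in depleted untreated and WT treated libraries and at 7.51 CPM or less in the others, while Psmb7 ran from 125 to 177 CPM.

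Rpl27-ps2 was low in 1 group. Its parent Rpl27 encodes a protein of the large ribosomal subunit. Rpl27-ps2 (chr11:101939501-101939899, plus strand, overlapping no listed gene) was at 4.05, 3.67, 3.80 and 3.39 CPM in WT untreated libraries and at 1.15, 1.21, 1.35 and 0.575 CPM in depleted untreated libraries. With treatment it was at 3.14, 3.54, 2.34 and 1.70 CPM in WT and at 2.76, 2.96, 2.69 and 2.33 CPM in depleted libraries. The depleted untreated libraries lay below all 12 others. They held 108 counts together, against 399 in WT untreated libraries. The difference in untreated tumours was −1.81 ± 0.27 (log2, edgeR adjusted p = 0.0101), and it passed without any 1 of the 8 libraries, with adjusted p from 0.0111 to 0.0426. In treated tumours it was 0.00 ± 0.26 (adjusted p = 0.998). The interaction was 1.81 ± 0.38 (0.0184), and the treatment difference in depleted mice 1.34 ± 0.28 (0.072). A fit of only the untreated groups gave −1.75 with an adjusted p of 0.0777.

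The parent mirrored it only in part. Rpl27 was at 71.0, 69.3, 98.4 and 72.7 CPM in WT untreated libraries and at 74.4, 34.5, 34.2 and 85.7 in depleted untreated libraries, so depleted libraries A and D stood with the WT libraries and B and C below them. The log2 ratio of pseudogene to parent CPM ran from −4.66 to −4.11 in WT untreated libraries. It was −5.91, −4.69, −4.60 and −7.08 in depleted untreated libraries A to D. WT treated libraries had 46.1, 44.8, 40.5 and 26.2 CPM of Rpl27 and depleted treated libraries 68.2, 64.4, 81.5 and 68.7. The log2 change of the parent was −0.44 ± 0.26 in untreated tumours (adjusted p = 0.361) and 0.84 ± 0.26 in treated tumours (0.0931), where the pseudogene stayed at 2.68 ± 0.82 and 2.69 ± 0.26 CPM. Its interaction passed on the same side as that of the pseudogene (1.29 ± 0.37, adjusted p = 0.045).

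Hspa9-ps1, like Psmb7-ps2, had higher means in depleted untreated and WT treated tumours than in the other groups. Hspa9 encodes mortalin, a chaperone of the mitochondrial matrix that helps to import and fold proteins. Hspa9-ps1 (chrX:60576946-60578878, minus strand) lies wholly inside another listed gene, so its reads count for that gene too. Hspa9-ps1 was at 85.9, 90.7, 108 and 94.0 CPM in WT untreated and at 131, 199, 150 and 105 CPM in depleted untreated libraries. With treatment it was at 134, 180, 154 and 187 CPM in WT libraries. Depleted treated libraries had 93.2, 79.1, 90.1 and 85.6 CPM. The treated groups did not overlap, and in the untreated groups depleted library D (105 CPM) lay below WT library C. Less of it in depleted treated than in WT treated tumours passed (log2 −0.91 ± 0.17, edgeR adjusted p = 0.0404), as did the interaction (−1.54 ± 0.23, 0.00701), whereas 0.63 ± 0.17 in untreated tumours did not (0.074). The call in treated tumours was lost without any 1 of depleted A, B, C or D or WT B, C or D (adjusted p from 0.059 to 0.101). The interaction passed without any 1 of the 16 libraries.

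The parent Hspa9 passed neither in untreated nor in treated tumours. Hspa9 had 338 ± 49 and 364 ± 49.5 CPM in WT and depleted untreated tumours and 399 ± 63 and 350 ± 67 CPM in the treated ones, with log2 changes of 0.11 ± 0.16 and −0.19 ± 0.16 (adjusted p 0.73 and 0.45).

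Among copies of ribosomal protein genes, Rpl38-ps1 and Rpl31-ps1 were higher in depleted than in WT treated tumours. Rpl38 and Rpl31 encode proteins of the large ribosomal subunit. Rpl38-ps1 (chr4:138425788-138426002) was at 11.5, 12, 12.2 and 4.26 CPM in WT treated and at 45.6, 18.3, 23.6 and 25.8 CPM in depleted treated libraries (log2 1.49 ± 0.32, edgeR adjusted p = 0.044). WT untreated libraries had 22.0, 14.6, 19.6 and 16.3 CPM of it and depleted untreated libraries 26.5, 20.9, 17.9 and 33.7. Rpl31-ps1 (chr12:91890896-91891273) was at 2.63, 2.87, 2.38 and 1.16 CPM in WT treated and at 9.63, 4.53, 5.08 and 6.22 CPM in depleted treated libraries (1.47 ± 0.32, 0.0465). It had 4.51 ± 0.85 and 4.33 ± 1.5 CPM in WT and depleted untreated tumours. For both, no depleted treated library overlapped the WT treated ones, WT library D was lowest and depleted library A highest. The parents stood on the same side, at 0.99 ± 0.24 for Rpl38 (adjusted p = 0.0553) and 0.78 ± 0.24 for Rpl31 (0.0942). Neither pseudogene passed once any 1 of the 8 treated libraries was left out (adjusted p from 0.0508 to 0.12), and with the GC slope as a covariate they were at 1.31 and 1.39 (adjusted p 0.101 and 0.0788). Without both libraries that stood apart they were at 1.22 and 1.24 (0.0171 and 0.0218).

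In untreated tumours 3 further members were lower without B cells. Actg-ps1, a copy of the cytoplasmic gamma actin gene Actg1 (chr8:46229566-46229973), was at 68.2, 63.5, 86.8 and 81.3 CPM in WT untreated and at 30.6, 10.1, 27.8 and 26.9 CPM in depleted untreated libraries (log2 −1.65 ± 0.32, edgeR adjusted p = 0.0267). It was at 37.5 ± 15 and 62.6 ± 17 CPM in WT and depleted treated tumours. Actg-ps1 overlaps another listed gene in part, and reads in the shared stretch count for both. Actg1 was at 1313 ± 209 and 939 ± 113 CPM in the untreated groups, a change of −0.48 ± 0.14 that did not pass (0.102). Rpl28-ps3 (chr4:126069867-126070280), a copy of the large subunit gene Rpl28, was at 63.4, 57.5, 84.6 and 68.4 CPM in WT untreated and at 32.9, 14.3, 28.3 and 36.7 CPM in depleted untreated libraries (−1.28 ± 0.24, 0.0221). Rpl28 changed by −0.45 ± 0.21 (0.25). Rpl28-ps3 lies in Oscp1, on the opposite strand, and the Oscp1 counts outside it were at 11.2 ± 1.9 and 15.5 ± 5.9 CPM in WT and depleted untreated libraries. Ldha-ps (chr2:60134055-60135049), a copy of the lactate dehydrogenase gene Ldha, was at 5.66, 7.23, 6.78 and 6.68 CPM in WT untreated and at 3.32, 1.47, 2.38 and 3.45 CPM in depleted untreated libraries (−1.29 ± 0.29, 0.0469). Ldha, the enzyme that turns pyruvate into lactate, was at 2551 ± 188 and 2728 ± 351 CPM (0.10 ± 0.14, 0.726).

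The untreated groups did not overlap in any of these 3, and depleted library B was lowest in each. Without both libraries that stood apart Actg-ps1, Rpl28-ps3 and Ldha-ps were at −1.38, −1.05 and −1.09 (edgeR adjusted p 0.00186, 0.00208 and 0.0443). None of the 3 passed in a fit of only the untreated groups (0.0847, 0.106 and 0.111) or with limma on the authors' log2 values (0.0646, 0.0616 and 0.0912). Without WT untreated A, C or D the adjusted p of Actg-ps1 was 0.0572, 0.0841 or 0.0892. That of Rpl28-ps3 was 0.0562, 0.0841 or 0.0762 without the same libraries and 0.0524 without depleted C. Ldha-ps did not pass once any 1 of the 8 was left out (0.0519 to 0.137). Ldha-ps lies in Baz2b, a chromatin reader gene of the opposite strand, of whose counts it made up 13.4%, and the Baz2b counts outside it were at 29.3 ± 2.4 and 30.3 ± 3.1 CPM in the same groups.

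**Figure D2:**
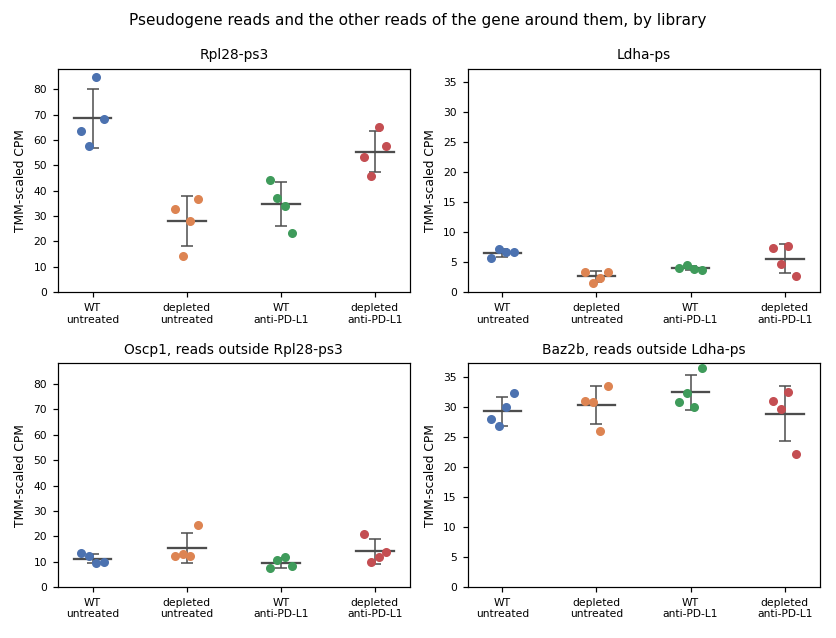
TMM-scaled CPM (y axis, linear, from 0) by library of Rpl28-ps3 and Ldha-ps (upper row) and of the counts of the gene around each, Oscp1 and Baz2b, outside the pseudogene (lower row, on the same scale as the pseudogene). Points are libraries, bars means and whiskers SD. Rpl28-ps3 ran from 14.3 to 84.6 CPM while the rest of Oscp1 stayed between 7.35 and 24.4 CPM.

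In the interaction, members with a low p beside Psmb7-ps2 and Hspa9-ps1 went both ways. Positive values mean that the B cell difference was higher in treated than in untreated tumours. Actg-ps1 (2.39 ± 0.44, edgeR adjusted p = 0.0153), Rpl28-ps3 (1.96 ± 0.34, 0.0111), Ldha-ps (1.74 ± 0.41, 0.0264) and Rps24-ps2 (1.64 ± 0.33, 0.0181) were positive, beside Rpl27-ps2. Rps24-ps2 (chr3:3791897-3792295), a copy of a small subunit gene, was at 7.92, 8.76, 8.98 and 9.17 CPM in WT untreated and at 4.82, 3.70, 4.42 and 6.07 in depleted untreated libraries. It was at 5.95, 4.97, 4.87 and 2.35 CPM in WT treated and at 9.32, 6.52, 7.93 and 7.44 in depleted treated libraries. Its parent Rps24 had an interaction of 0.30 ± 0.27 (0.466). Kat2b-ps, a copy of a histone acetyltransferase gene (−1.71 ± 0.38, 0.0209), and Smt3h1-ps, a copy of the SUMO protein gene Sumo3 (−0.94 ± 0.23, 0.027), were negative.

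Kat2b-ps (chr5:93390602-93393091) was at 6.27, 5.09, 5.72 and 6.80 CPM in WT untreated and at 7.39, 14.4, 8.47 and 5.61 CPM in depleted untreated libraries. With treatment it was at 8.58, 9.73, 14.1 and 16.8 CPM in WT and at 4.58, 6.63, 5.0 and 6.03 CPM in depleted libraries. It was highest in the libraries that stood apart, and without both its interaction was −1.23 (edgeR adjusted p = 0.0222), while with the GC slope it was −0.88 (0.146). Smt3h1-ps (chrX:153783340-153783619) was at 14.8 ± 1.7 and 20.3 ± 0.95 CPM in WT and depleted untreated tumours and at 19.2 ± 2.5 and 13.7 ± 3.0 CPM in the treated ones, and Sumo3, which makes a small protein that is attached to others, had an interaction of 0.08 ± 0.16 (0.768). Rpl19-ps11 and Rpl31-ps1 also passed the interaction (−1.10 ± 0.31 and 1.52 ± 0.44, 0.0413 and 0.0471). With the GC slope that of Rpl19-ps11 was −0.40 (0.417).

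Single libraries decided some of these interaction calls. Kat2b-ps was lost without depleted treated C or WT untreated C (edgeR adjusted p 0.0501 and 0.0504). Smt3h1-ps was lost without depleted treated C, WT untreated A, B or C, or WT treated D (0.051 to 0.0624), and Ldha-ps without depleted treated C, WT untreated C or D, or WT treated C or D (0.0504 to 0.0612). Rpl19-ps11 passed without 5 and Rpl31-ps1 without 3 of the 16 libraries. Psmb7-ps2, Hspa9-ps1, Rpl27-ps2, Rpl28-ps3, Actg-ps1 and Rps24-ps2 passed without any 1 of the 16.

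**Figure D3:**
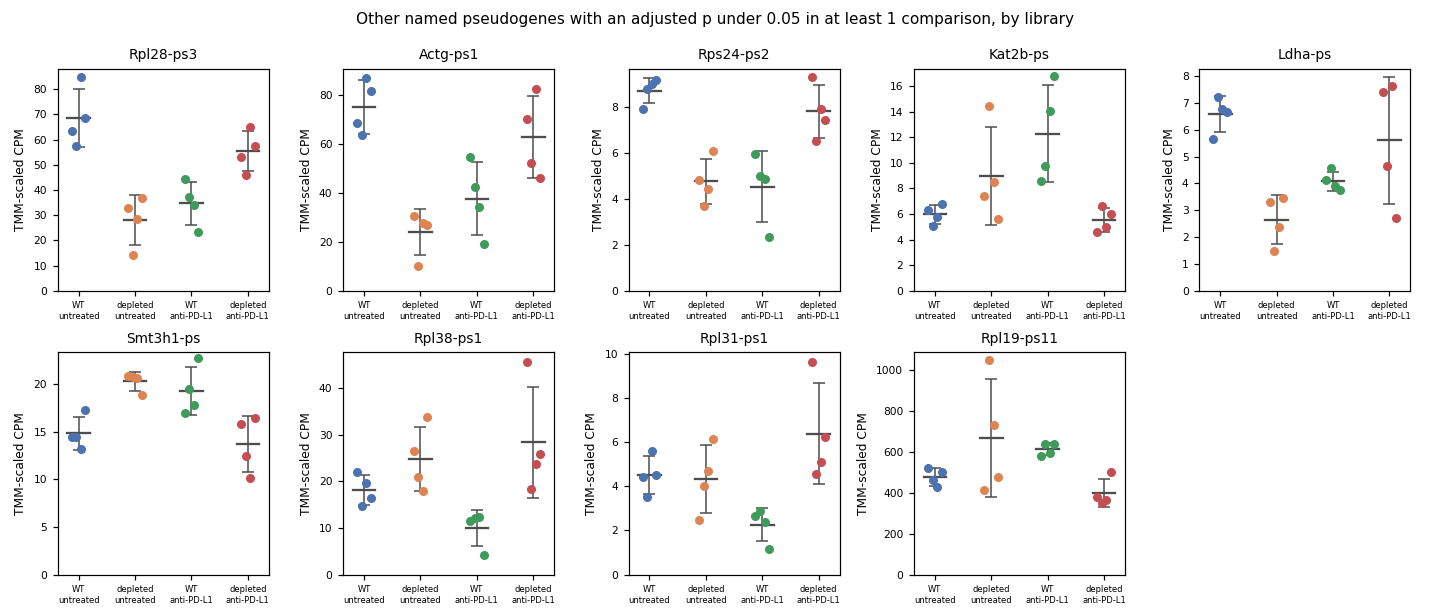
TMM-scaled CPM (y axis, linear, from 0) by library of 9 pseudogenes that passed an adjusted p under 0.05 in at least 1 comparison, other than those in the plot of marker pairs. Points are libraries of the 4 groups, bars means and whiskers SD. Rpl28-ps3 and Rps24-ps2 were lower in every depleted untreated and WT treated library than in any other library, as were 0.584% of all tested genes. Rpl38-ps1 and Rpl31-ps1 were lowest in WT treated library D.

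The makeup of the positive and negative members of the interaction is given as a description. Of the 14 positive members 12 were copies of ribosomal protein genes and 1 lay on X, whereas of the 16 negative members 3 were such copies and 5 lay on X. Among all 249 members 147 were such copies and 41 lay on X. Of all 937 tested genes on X, 51 passed the interaction on the higher and 61 on the lower side. Over all tested genes these counts were 918 and 556. The positive members had a median span of 418 bases and a median of 5.55 CPM, the negative ones 769 bases and 28.4 CPM. GC content had a median of 51.3% in the positive, 47.7% in the negative and 49.4% in all members. With the members ranked by GC content and split into 4 bins of 61 to 63, the median interaction from the lowest to the highest bin was −0.12, 0.40, 0.45 and 0.30. Of the 14 positive members, 13 had a parent on the same side, and for 7 of these members the parent passed. A parent is counted once for each of its copies, and 3 of the 14 were copies of Rps19. Of the 15 negative members with a parent, 8 had it on the same side, and for 2 of these members it passed. Over all 227 members with a tested parent, 166 had it on the same side, and for 41 of these it passed. Of the 30, 4 passed with the GC slope as a covariate: Psmb7-ps2 (−2.10), Hspa9-ps1 (−1.07), Rpl28-ps3 (1.24) and Rpl27-ps2 (1.94). The median size over the 30 was 1.59 without and 1.02 with this covariate. Without both libraries that stood apart 18 of the 30 passed, with a median size of 1.26.

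As a group, copies of ribosomal protein genes lay on the same side as their parents. Over 147 such copies the median log2 change was 0.32 between depleted and WT treated tumours and −0.23 between depleted and WT untreated tumours, beside 0.03 and 0.04 over all tested genes. It was −0.41 for treatment in WT and 0.18 for treatment in depleted mice, beside −0.01 and −0.01. The median interaction was 0.61 (0.00 over all tested genes), and 15 of 147 passed it (10.2%, against 7.62% of all tested genes), 12 higher and 3 lower. The 48 parents of these copies had medians of 0.56, −0.14, −0.43, 0.21 and 0.69 in the same order, and 10 passed the interaction (20.8%), each on the higher side. In the separate comparisons 2, 2, 0 and 0 of the copies passed. How far these medians depend on single libraries was not computed for these copies alone. Over all 249 members the median in treated tumours was 0.06, and 0.003 with the GC slope as a covariate. It ran from −0.03 without WT treated D to 0.15 without WT treated A. The median interaction of all members was 0.30, and 0.22 with the GC slope. It ran from 0.17 to 0.35 without the same libraries.

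Most role groups other than ribosomal proteins had a median interaction below 0. The 9 copies of histone and chromatin genes had a median of −0.56, with Hmgb1-ps2 passing (−0.70 ± 0.19, edgeR adjusted p = 0.0394). Hmgb1, an abundant DNA-bending protein of chromatin, was at −1.46 ± 0.41 (0.0418). The 4 copies of translation factor genes had a median of −0.82, with Eif3s6-ps2, a copy of the initiation factor gene Eif3e, passing (−2.16 ± 0.55, 0.031) while Eif3e was at −0.15 (0.836). Of the 5 chaperone copies 1 passed, Hspa9-ps1, and the median was −0.14. The glycolysis copies split: Ldha-ps was at 1.74 and Ldha-ps2, another copy of the same gene, at −1.59 ± 0.60 (0.0926). Of 2 proteasome copies, Psmb6-ps was at 0.03 (0.965), beside −2.19 for Psmb7-ps2. The 77 copies of other genes had a median of −0.12, with 1 higher and 9 lower among those that passed. The members named in this paragraph other than the markers and Ldha-ps were chosen after their values were seen.

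Pseudogenes of 1 parent could be compared with each other. At least 4 members came from each of 13 parents, 100 members in all, and all but Hmgb1 and Ppp1r2 of these parents encode ribosomal proteins. Rps12 had 16, Rpl31 14, Rps19 12 and Rpl21 9. For Rps12, a protein of the small subunit, all 16 copies were above 0 between depleted and WT treated tumours (log2 from 0.15 to 1.75, median 0.73), with the parent at 0.96 ± 0.26 (edgeR adjusted p = 0.076). All 12 copies of Rps19, another small subunit gene, were above 0 (0.01 to 1.75, median 0.73), with the parent at 0.83 ± 0.31 (0.128). Of the 14 copies of Rpl31, 13 were above 0 (−0.10 to 1.47, median 0.36). No member of these 3 families but Rpl31-ps1 passed in that comparison. Copies of 1 gene may share reads, so their common side is not independent evidence.

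Other families varied in how their copies lay beside the parent. All 4 copies of Rpl19 were below 0 in treated tumours (−1.29 to −0.41, median −0.66), while Rpl19 was at 0.04 ± 0.18 (0.895). The 4 copies of Ppp1r2, an inhibitor of protein phosphatase 1, ran from −1.76 to −0.35, all on the side of Ppp1r2 at −0.34 ± 0.23 (0.357). Between depleted and WT untreated tumours 11 of 12 Rps19 copies were below 0, as was the parent (median −0.31, parent −0.77 ± 0.30), whereas the 7 copies of Rpsa, the laminin receptor of the small subunit, had a median of −0.13 with Rpsa at 0.33 ± 0.15. None of these family values passed except where named.

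**Figure D4:**
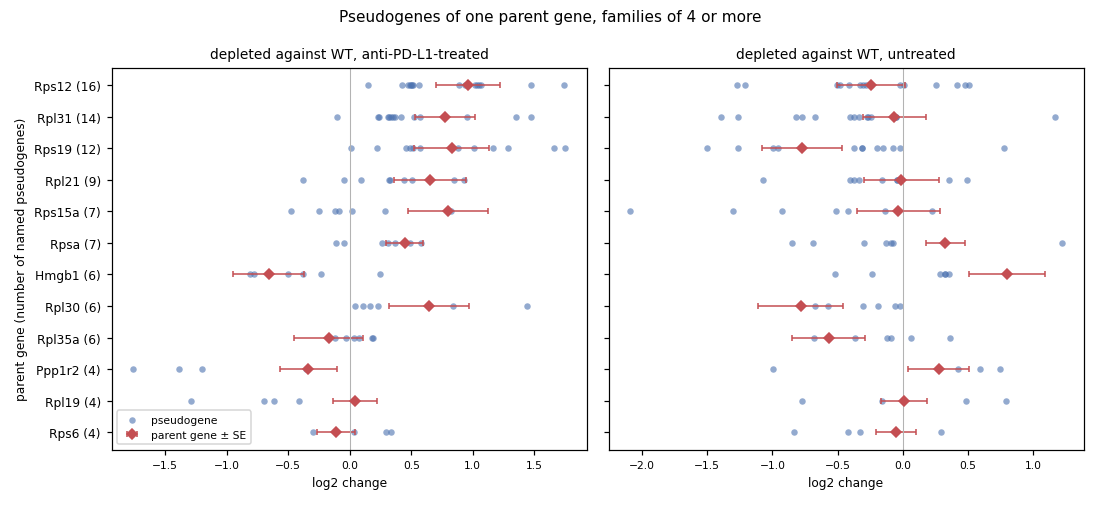
Log2 change (x axis) of each pseudogene (blue points) and of its parent gene (red diamonds with SE) for 12 of the 13 parent genes with at least 4 named pseudogenes (y axis, number in parentheses). The left panel compares depleted with WT anti-PD-L1-treated tumours and the right panel depleted with WT untreated tumours. All 16 Rps12 copies lie above 0 on the left, and all 4 Rpl19 copies lie below 0 while Rpl19 is at 0.04.

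Over all 227 members with a tested parent, changes of copy and parent were related to differing degrees. Between depleted and WT treated tumours the correlation across these pairs was 0.62 (Pearson) and 0.66 (Spearman), and 156 pairs (68.7%) were on the same side of 0. Between depleted and WT untreated tumours it was 0.27 and 0.27, with 153 pairs (67.4%) on the same side. The values for treatment in WT mice were 0.65 and 0.67 (176 pairs, 77.5%) and those for treatment in depleted mice 0.38 and 0.42 (153 pairs, 67.4%). Pairs share libraries, many share a parent, and some may share reads, so these values are descriptions across genes. Among the 161 members that overlap no gene the Pearson values were 0.66, 0.33, 0.71 and 0.41. They were 0.44, 0.16, 0.51 and 0.21 among the 147 ribosomal protein copies and 0.44, 0.33, 0.46 and 0.32 among the 80 other copies. Of these class values only 0.33, for untreated tumours in the other copies, was not below the value over all pairs. Pseudogene and parent lay more than 1 log2 unit apart in 19 pairs in treated and 25 pairs in untreated tumours, and in 51 pairs for the interaction.

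**Figure D5:**
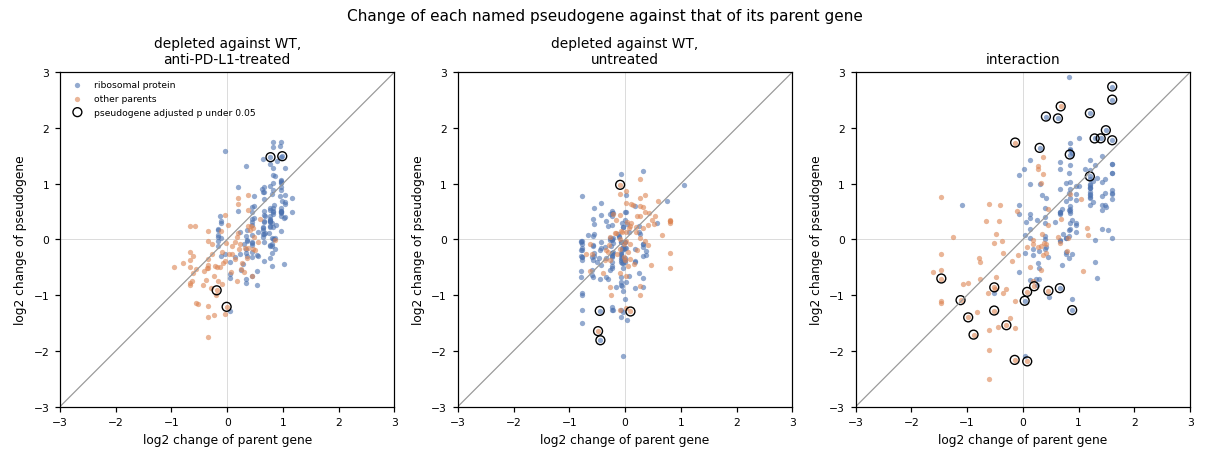
Log2 change of each named pseudogene (y axis) against that of its parent gene (x axis) for 227 pairs in 3 comparisons, with ribosomal protein copies in blue, copies of other genes in orange and circles around pseudogenes with an edgeR adjusted p under 0.05. The grey diagonal marks equal change. Pearson correlations across pairs were 0.62, 0.27 and 0.57 from left to right. They were 0.44, 0.16 and 0.42 in ribosomal protein copies and 0.44, 0.33 and 0.39 in the other copies. Circles follow the p of the pseudogene alone, which favours points with a large pseudogene change, so their distance from the diagonal is not a result.

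The most abundant members were copies of housekeeping genes. Of the 10 highest, 9 passed in no comparison, which is near the share over all 249 members, of which 31 passed in at least 1. The 10 with the highest mean CPM held 32.4% of the counts of all members. Tpt1-ps3, a copy of the gene of translationally controlled tumour protein, was at 805 ± 60 and 884 ± 255 CPM in WT and depleted untreated tumours and at 868 ± 145 and 784 ± 171 CPM in the treated ones (SD, n = 4). Rpl3-ps1, a copy of a large subunit gene, was at 797 ± 75, 787 ± 107, 666 ± 145 and 723 ± 106 CPM in the same order. Next came Eif4a-ps4, a copy of a gene of the RNA helicase eIF4A, Pgam1-ps2 of glycolysis, Oaz1-ps, a copy of the antizyme gene that limits polyamine synthesis, Rpl10a-ps1, Rpl19-ps11, Rps6-ps4, Rps16-ps2 and Cd63-ps, a copy of a tetraspanin gene. Rpl19-ps11 passed the interaction, and the log2 changes of the other 9 ran from −0.67 to 0.55. Per kb of listed span, which for parents includes introns, 151 of 228 members had more CPM than their parent. Tpt1-ps3 had 1214 and Tpt1 77.6 CPM per kb, whereas Ldha-ps had 4.73 and Ldha 172.

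For the 9 of these 10 that had a parent, the log2 ratio of pseudogene to parent CPM was compared between groups by exact two-sided permutation tests over 70 splits, with 36 tests in all and a smallest possible p of 0.0286. That p was reached in 4 tests between depleted and WT treated, 3 between depleted and WT untreated, 6 between treated and untreated WT and 1 between treated and untreated depleted tumours. Adjusted by Benjamini-Hochberg over the 36 tests these 14 were at 0.0735, so none passed. The ratio of Rpl19-ps11 to Rpl19 reached the smallest p in each of the 4 comparisons, at 1.94 ± 0.13 in WT and 2.36 ± 0.27 in depleted untreated tumours and at 2.38 ± 0.26 and 1.71 ± 0.26 in the treated ones. The ratio of Rpl3-ps1 to Rpl3 was 2.05 ± 0.11 in WT untreated and 2.45 ± 0.11 in WT treated tumours (exact permutation p = 0.0286), and 1.89 ± 0.27 in depleted treated tumours (exact permutation p = 0.0286 against WT treated). That of Rpl10a-ps1 to Rpl10a was 1.90 ± 0.12, 2.23 ± 0.10 and 1.78 ± 0.20 in these groups (exact permutation p = 0.0286 for both). Ratios in depleted treated tumours were below those in WT treated tumours in 8 of 9 pairs, while those in WT treated tumours were above WT untreated ones in 7 of 9. The comparisons share the WT treated libraries.

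Near the threshold of 0.5 CPM, Rps19-ps13 and Vmn2r-ps126 were just inside (means of 0.502 and 0.515 CPM), and Smt3h2-ps and Rpl31-ps7 just outside (0.483 and 0.482 CPM). With a threshold of 1 CPM 228 members remained, and the counts of members that passed were 4, 5, 0, 1 and 30 in the 5 comparisons.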

How the data were processed

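Tumour RNA had ribosomal RNA removed and was made into Ion Total RNA-Seq libraries. The authors deposited read counts per gene (build mm10) over whole gene spans, introns included, with the GC content of each span in percent per the file headers. For the aligner, counter and annotation, names are not given in the sources used. The authors also deposited log2 values, credited to DESeq in the submitters' processing notes, from which 13 damaged cells and 12140 genes of constant value were left out. Deposited tables of the authors' own tests and enrichment were not used, nor were 32 other per-library columns.

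All 16 libraries entered 1 fit in edgeR 4.0.16 under R 4.3.3 (TMM factors, filterByExpr, robust quasi-likelihood F tests, 1 coefficient per group), tested on simulated data, with Benjamini-Hochberg adjustment over 19340 genes and calls at an adjusted p under 0.05. CPM use TMM-scaled totals, ratios a prior count of 2. Each library was taken as 1 mouse, as the series gives 4 per group. Members and lists were chosen with earlier results of these data known. Named are the 3 markers, up to 10 members called per comparison by lowest p, the 10 of highest CPM, their parents and the genes around them, and 2 pseudogenes on each side of the threshold, and some results that this rule includes are not reported here. Role groups follow the parent symbol, with Rpsa added to the ribosomal proteins afterwards. Alternatives used DESeq2 1.42.0, limma 3.58.1, other scalings, filters and samples, and the GC slope as a covariate.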

Additional observations from a re-analysis of the deposited data

Results flagged for a closer look

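The B cell difference of 30 of the 249 members (12%, against 7.62% of all tested genes) differed between treated and untreated tumours by the interaction term of the edgeR fit at an adjusted p under 0.05, and 9 of the 10 with the lowest p are given here. The interaction was −2.19 for Psmb7-ps2 (−1.21 in treated and 0.98 in untreated tumours), −1.54 for Hspa9-ps1 (−0.91 and 0.63), −1.71 for Kat2b-ps (−1.13 and 0.57) and −0.94 for Smt3h1-ps (−0.49 and 0.45). It was 1.81 for Rpl27-ps2 (0.00 and −1.81), 1.96 for Rpl28-ps3 (0.68 and −1.28), 2.39 for Actg-ps1 (0.74 and −1.65), 1.74 for Ldha-ps (0.44 and −1.29) and 1.64 for Rps24-ps2 (0.78 and −0.87).

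A library lay far from the other 3 of its group, by the ratio of its gap to the range, in 6 of 88 sets of 4 libraries over the 22 pseudogenes that the naming rule chose. Chance gives about 1 in 20, so this count is near chance. The sets share libraries and are not independent. In 4 of the 6 it was WT treated library D that was low: Rpl38-ps1 was at 4.26 CPM there against 11.5 to 12.2, Rpl3-ps1 at 450.8 against 709.8 to 759.2, Rps6-ps4 at 437 against 593 to 610 and Rps16-ps2 at 309 against 525 to 567. Smt3h1-ps was at 18.8 CPM in depleted untreated library D against 20.6 to 20.8, and Cd63-ps at 508 in WT treated library B against 562 to 567.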

How the results depend on the processing

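DESeq2 size factors and a minimum of 1 CPM left every count of members called in the 5 comparisons within 1.5 times its value, and none of the 22 calls of named members reversed sign under the alternatives run for it. In treated tumours the count of 4 (depleted against WT) became 7 with raw totals, 2 with the GC slope, 50 with only the groups compared, 2 with limma voom, 1 with the authors' log2 values, 45 with DESeq2, 2 over members that overlap no gene, 39 without both libraries that stood apart (chosen after seeing the data) and 0 to 2 with 1 library left out, 0 without WT treated C (where edgeR called 0 genes). In untreated tumours 5 became 11 with the GC slope, 0 with only the groups compared, 2 with the authors' log2 values, 23 with DESeq2, 1 over members that overlap no gene, 18 without both libraries and 1 to 5 with 1 left out (1, 3, 2 and 1 without WT untreated A to D). For treatment in WT mice 0 became 1 with raw totals, 70 with only the groups compared, 1 with limma voom, 24 with DESeq2, 14 without both libraries and 0 to 1 with 1 left out. For treatment in depleted mice 1 became 7 with the GC slope, 0 with only the groups compared, 17 with DESeq2, 0 over members that overlap no gene, 6 without both libraries and 0 to 2 with 1 left out. The interaction count of 30 became 5 with the GC slope, 9 with the authors' log2 values, 71 with DESeq2, 19 over members that overlap no gene, and 6 to 75 with 1 library left out (6 without depleted treated C or WT untreated C, 75 without depleted untreated D). The share of all tested genes called for treatment in WT mice went from 0.00517% to 8.9% with DESeq2 and 0.103% with limma voom. That of the interaction went from 7.62% to 0.9% with the GC slope. Shares under most other alternatives are not given, so these counts are not read as results about the members. The cause of these shifts in counts was not tested, apart from the smaller number of members where overlaps are left out. Of 22 calls of named members, 10 were lost with the GC slope and 10 with the authors' log2 values, 2 each with limma voom and no filter, and 1 each with raw totals and without both libraries, while 0 were lost with DESeq2. With only the groups compared, which gives no interaction, 6 of the other 10 calls were lost. Raw totals put the median log2 change of all tested genes between −0.10 and 0.11, and split the 5 calls in untreated tumours into 2 higher and 3 lower. No paired analysis was possible because the columns carry letters and no replicate numbers. Calls rest on 4 libraries a group, and reads shared between copies limit every pair.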
